A study of Rattus norvegicus with 8 samples.

Results

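The microRNA (miRNA) repertoire of untreated C6 cells was read from the 2 control arrays among the 8 arrays of a study of antipsychotic drugs. C6 is a clonal line from a chemically induced rat brain tumour, widely used as a glioma model; the labels class it as glioblastoma. The control cells received no drug, carry the label time of 5 days and grew in medium with 10% horse serum and 2% fetal bovine serum. Both arrays took 100 ng of total RNA labelled with Cy3, a single fluorescent dye, and hybridised to an Agilent rat miRNA array. The submitters describe the experiments as biological repeats, so the spread between the 2 arrays covers cultures of 1 line together with their arrays. Each array read 719 miRNAs through 1730 probes and 14380 spots. A miRNA was a member of the repertoire when the scanner software flagged it as detected on both arrays. This held for 238 of 719 miRNAs (33.1%), from 249 detected on control replicate 1 and 242 on control replicate 2. A further 15 were detected on 1 array only, with signals of 2.88 to 16.3, and 466 on neither. The number of arrays limits the precision, no comparison between groups was made and nothing was tested. The arrays read only miRNAs, so the glial protein markers of the line could not be checked. The 5 miRNAs proposed as its markers, miR-21-5p, miR-125b-5p, miR-23a-3p, miR-24-3p and miR-29a-3p, held ranks 1, 2, 3, 6 and 7, but they had been chosen from these same data.

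A miRNA is cut from an RNA hairpin whose sides are the 5p and 3p arms. Usually one arm is loaded into an Argonaute protein as the guide while the passenger arm is degraded, and the guide recognises messenger RNAs mainly through its seed, bases 2 to 8. miRNAs with a shared seed form a family with overlapping targets, and neighbouring hairpins are often cut from one primary transcript. In glial tumours miR-21 is known for repressing growth-restraining genes such as Pdcd4, whereas let-7 is known for repressing growth genes such as Ras and Hmga2.

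The mature sequences of the members that carried most of the signal are given below 5′ to 3′ with the seed in capitals, as listed by RefSeq for the rat build GRCr8, which held 209 of the 238 members. First come the brightest miRNA, miR-21-5p from chr10:71902653-71902674 (minus strand), the next, miR-125b-5p, with 1 of its loci at chr11:29732588-29732609 (plus strand), and the brightest miRNAs of the miR-23, miR-27 and miR-24 group, with miR-23a-3p from chr19:40859778-40859798 and miR-27a-3p from chr19:40859614-40859634 on the minus strand.
miR-21-5p: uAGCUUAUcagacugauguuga
miR-125b-5p: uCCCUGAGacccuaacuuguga
miR-23a-3p: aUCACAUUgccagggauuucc
miR-23b-3p: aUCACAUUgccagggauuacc
miR-27a-3p: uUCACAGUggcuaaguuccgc
miR-27b-3p: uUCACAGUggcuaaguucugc
miR-24-3p: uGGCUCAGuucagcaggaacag
The seeds of miR-23 and miR-27 differ although their hairpins sit side by side. The a and b forms of each differ at 1 of 21 bases, so part of the signal of one form could come from the other.

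The 8 detected miRNAs with the let-7 seed are shown together because they had the most signal of any seed with more than 1 member. Their near identity also limits what the probes can tell apart.
let-7f-5p: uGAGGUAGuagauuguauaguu
let-7a-5p: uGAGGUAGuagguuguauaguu
let-7c-5p: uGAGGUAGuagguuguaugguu
let-7b-5p: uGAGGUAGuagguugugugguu
let-7d-5p: aGAGGUAGuagguugcauaguu
let-7i-5p: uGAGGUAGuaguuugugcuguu
let-7e-5p: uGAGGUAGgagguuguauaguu
miR-98-5p: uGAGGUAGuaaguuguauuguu
Against let-7a-5p, the forms c, e and f differ at 1 of 22 bases, b, d and miR-98-5p at 2 and let-7i-5p at 4. The order of levels within this family is therefore uncertain.

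Members of 4 more bright families follow, each family with its own seed. The miR-29 forms are known for targeting collagens, miR-221 the cell-cycle inhibitor p27 and miR-16 cyclins and Bcl2, and miR-19 belongs to the growth-promoting miR-17 to miR-92a cluster.
miR-29a-3p: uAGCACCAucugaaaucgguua
miR-29b-3p: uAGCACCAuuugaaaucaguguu
miR-29c-3p: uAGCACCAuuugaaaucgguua
miR-221-3p: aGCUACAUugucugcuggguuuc
miR-16-5p: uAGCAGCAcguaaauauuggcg
miR-15b-5p: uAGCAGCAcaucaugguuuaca
miR-19b-3p: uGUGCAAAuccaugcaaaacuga
Within the miR-29 seed family, miR-29a-3p and miR-29c-3p differ at 1 of 22 bases, and miR-29a-3p and miR-29b-3p at 4.

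The signal of the repertoire was concentrated in few miRNAs. The level of a miRNA here is the deposited gene-level signal, a linear and scaled fluorescence total over its probes, which fill 20 spots. Its share is the percent of the summed signal of all 238 members on that array. That sum was 335762 on replicate 1 and 334455 on replicate 2. The counts that follow take the miRNAs in 1 order, by mean log2 signal over both arrays. Each array's own order could need fewer miRNAs, so small differences between the arrays in these counts carry no meaning. In the joint order the first 7 miRNAs reached 50% of the sum on replicate 1, and the first 6 did on replicate 2. The 10 brightest held 61.8% ± 0.326 (SD, n = 2 arrays) and the 25 brightest 82.1% ± 0.181. To reach 90% of the signal took 43 miRNAs on replicate 1 and 42 on replicate 2, and to reach 99% took 124 on each. The dimmer 119 members together held 1.12% on replicate 1 and 1.14% on replicate 2. The brightest member was 25852-fold above the lowest detected member signal on replicate 1 and 35115-fold on replicate 2, with 0 saturated spots on either. Probes of different miRNAs bind and label unequally: on replicate 1 the brightest and dimmest probes of the same miRNA were a median of 1.87-fold apart, and 1.91-fold on replicate 2. The order given here is therefore one of array signal, not of molecules per cell.

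**Figure D1:**
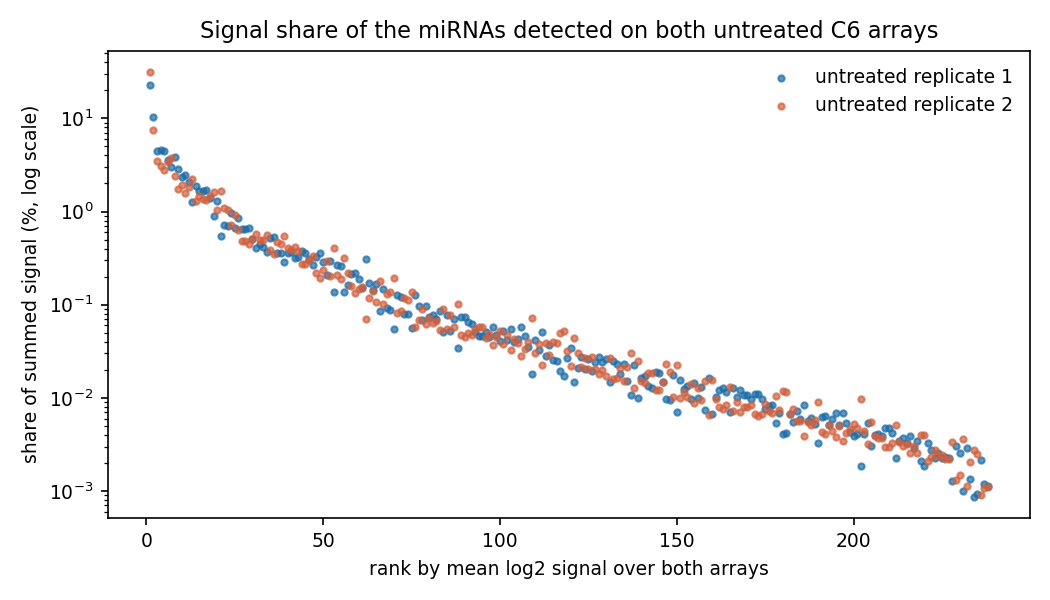
Share of summed signal in percent (log axis) against the rank of each of the 238 miRNAs by mean log2 signal, with 1 point per miRNA and array (blue, untreated replicate 1; orange, untreated replicate 2). miR-21-5p stands at the far left at 22.5% and 31.5%, and shares of the dimmest members lie near 0.001%.

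miR-21-5p gave a signal of 75634 on replicate 1 and 105204 on replicate 2, a share of 22.5% and 31.5%. It was 2.17-fold above the next miRNA on replicate 1 and 4.19-fold on replicate 2, and its own probes were 1.57-fold and 1.51-fold apart. It was the brightest miRNA on both arrays. For 1 in 10 miRNAs with several measured probes those probes were over 4.90-fold apart on replicate 1 and 5.51-fold on replicate 2, which is more than either margin. Second was miR-125b-5p, a homologue of the nematode timing RNA lin-4 that is abundant in brain, at 34783 and 25094, or 10.4% and 7.503%. Its share was lower on replicate 2, where that of miR-21-5p was higher.

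From the third place on, most neighbours in the order were not separated by the spread between the arrays. Among the 25 brightest, 18 of all 24 neighbouring pairs stood in opposite order on the 2 arrays. miR-23a-3p, known for repressing glutaminase, was at 15090 and 11613. let-7f-5p was at 15403 and 10197 and let-7a-5p at 14990 and 9416, so each exceeded miR-24-3p (11881 and 11422) on replicate 1 but not on replicate 2. miR-29a-3p went the other way, with 10198 and 12592. Ranks 8 to 10 were let-7c-5p (12878 and 8100), let-7b-5p (9549 and 5850) and miR-16-5p (7828 and 6391). The arrays nevertheless shared 24 of their own 25 brightest miRNAs and 8 of their own 10.

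The other 15 of the brightest 25 had mean shares that ranged from those of miR-23b-3p (2.47% and 1.59%) down to miR-129-2-3p (0.663% and 0.913%). Several are known regulators of the cell cycle. miR-221-3p stood at 6943 and 6068, miR-15b-5p at 5620 and 4560, and miR-20a-5p, which targets E2f1, at 2412 and 3636. miR-31a-5p, whose hairpin lies near the Cdkn2a tumour suppressor locus in mammals, was at 4636 and 4848, values closer to each other than those of its neighbours in the order. miR-22-3p was at 4373 and 3465 and miR-130a-3p at 2342 and 3479. miR-1949, a little-studied rodent miRNA, was the 1 member of the 25 named without an arm and gave 3245 and 2376. Of the rest, 12 were 5p and 12 were 3p arms. The median GC content of the 25 sequences was 40.9%, against 47.6% over the 209 members with a sequence and 47.8% over 417 undetected miRNAs with one. Across the 209 members the correlation of GC content with mean log2 signal was -0.28 (Pearson), given as a description across miRNAs that share the arrays and the labelling.

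**Figure D2:**
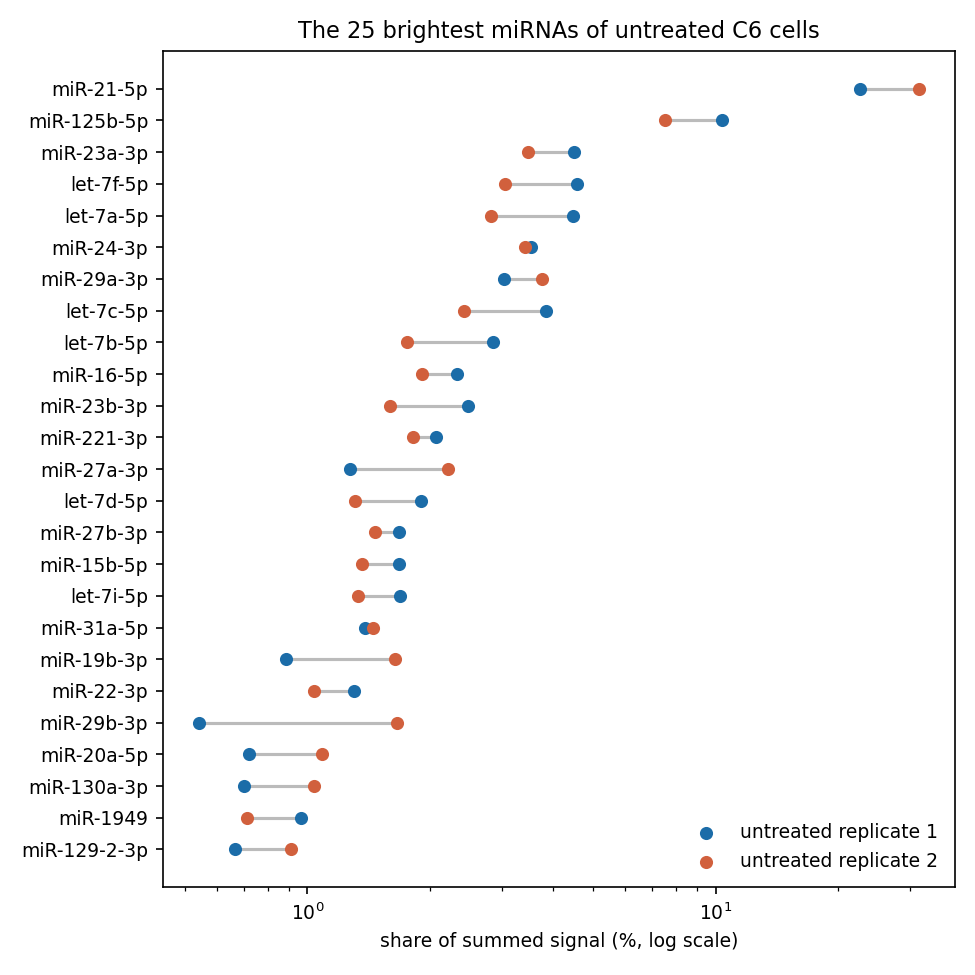
Share of summed signal in percent (log axis) of the 25 brightest miRNAs, in rank order from the top, with blue points for untreated replicate 1, orange points for untreated replicate 2 and grey lines joining them. miR-21-5p and miR-125b-5p stand apart at the top, and the points of most other neighbours overlap in range.

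Grouping by seed pools miRNAs, so it can only keep or raise the share held by the brightest units. The 209 members with a sequence held 98.8% of the signal on each array and carried 161 different seeds, of which 27 were shared by at least 2 members. The 5 brightest seeds held 64.6% on replicate 1 and 63.7% on replicate 2. The seed of miR-21-5p held 22.5% and 31.5% through that miRNA alone, and the let-7 seed 20.5% and 13.6% through 8. The seed of miR-125b-5p, shared with miR-125a-5p and miR-351-5p, held 10.66% and 7.71%. On replicate 1 the miR-21 and let-7 seeds were thus nearly level, and on replicate 2 the miR-21 seed was well ahead.

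Families were also taken as lists of names that include passenger arms. The let-7 and miR-98 list had 10 of 17 names detected on both arrays and held 17.1% ± 4.92 (SD, n = 2). let-7g was not on the array. miR-23, miR-27 and miR-24, with 7 of 11 detected, held 12.8% ± 0.902, a smaller spread between arrays than that of let-7. In this list miR-27a-3p was at 4274 and 7399 and its form b at 5625 and 4908, while miR-24-2-5p, a passenger arm, was at 35.6 and 102. The miR-125 list (6 of 7) held 9.21% ± 2.09, nearly all of it in miR-125b-5p, with miR-125a-5p at 980 and 681. The miR-29 list (5 of 7) held 4.91% ± 1.37 and the miR-15 and miR-16 list (7 of 10) 3.96% ± 0.478. All 4 names of miR-221 and miR-222 were detected and held 2.28% ± 0.170. miR-21-5p and these 6 lists, 40 miRNAs in all, held 77.9% on replicate 1 and 76.6% on replicate 2.

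Other widely expressed families were detected at low shares. All 11 names of the miR-30 family, known for restraining Snai1 and other drivers of mesenchymal change, were detected, yet together they held 0.489% ± 0.0013. miR-30b-5p was its brightest member at 509 and 519. The p53-responsive miR-34 family with miR-449 had 7 of 10 detected and held 0.584% ± 0.170, led by miR-34a-5p at 901 and 1109. miR-34b-5p (186 and 455) and miR-34c-5p (287 and 602), which share a transcript, were both over 2-fold brighter on replicate 2. miR-26 (3 of 4) held 1.001% ± 0.242, miR-103 and miR-107 (2 of 5) 0.731% ± 0.0488, and miR-99 and miR-100 (5 of 6), neighbours of let-7 and miR-125 genes, 0.624% ± 0.152. miR-130 and miR-301 (2 of 8) held 0.993% ± 0.341. The miR-181 family (5 of 10), known from lymphocytes and brain, held 0.205% ± 0.0272. The tumour-restraining miR-101 (2 of 4), which targets Ezh2, held 0.0694% ± 0.0464.

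**Figure D3:**
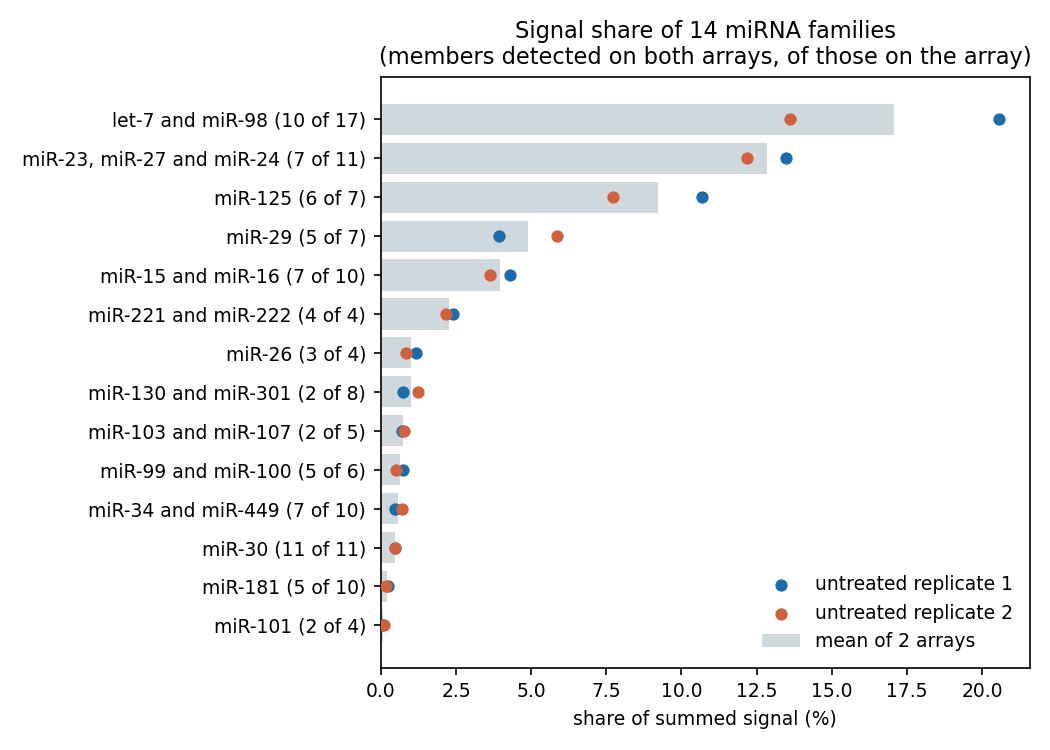
Share of summed signal in percent of 14 miRNA families, with bars (from 0) for the mean of 2 arrays, blue points for untreated replicate 1 and orange points for untreated replicate 2. let-7 has the highest bar at 17.1% and the widest gap between its points, and the miR-23, miR-27 and miR-24 bar follows at 12.8%.

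Most genomic clusters had a detected product for every gene or for none, and many of them hold only 2 genes. RefSeq placed 408 miRNA genes with names on the array, and 196 of them lay in 57 clusters of genes at most 10 kb apart on one strand. In 26 clusters every gene had a detected product, in 17 none had, and in 14 some had. Over the whole array 33.1% of names were detected on both arrays. A gene counted with either arm, so the share of names is not the rate of genes. Of 262 hairpins with both arms on the array, 119 had neither arm detected on either array. Whether clusters were complete or empty more often than this rate alone would give was not tested. A product also made at another locus counted for each locus, so a complete cluster need not be active. The cluster of miR-23a, miR-27a and miR-24-2 at chr19:40859481-40859798 (GRCr8, minus strand) held 9.32% and 9.13%, and its second copy of miR-23b, miR-27b and miR-24-1 on chromosome 17 held 7.68% and 6.47%. Both values include miR-24-3p, which is made from both. The same applies to let-7a, let-7c, let-7f, miR-17-5p, miR-19b-3p, miR-92a-3p, miR-29b-3p, miR-30c-5p and miR-181a-5p, whose signal cannot be assigned to 1 locus. It applies to miR-125b-5p as well, since the array names passenger arms of 2 miR-125b hairpins.

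The growth-promoting cluster of miR-17 to miR-92a at chr15:98587861-98588622 (plus strand) had products of all 6 genes, and 9 of its 12 names on the array were detected. Its list has 15 names because it also takes in miR-17-2-3p, miR-19b-2-5p and miR-92a-2-5p, which are numbered for the second locus and were undetected. The cluster held 3.63% ± 1.14. Its levels were uneven: miR-19b-3p gave 2973 and 5479, miR-17-5p 1375 and 1919, miR-18a-5p 459 and 1060, and miR-92a-3p 1760 and 1289. miR-19b-3p exceeded miR-18a-5p by 6.47-fold on replicate 1 and 5.17-fold on replicate 2. The related cluster of miR-106b, miR-93 and miR-25 was also complete (4 of 6 names, 1.501% ± 0.0723), with miR-25-3p at 2164 and 1613 and miR-93-5p at 1718 and 1715. The related X-chromosome cluster had a detected product for 4 of its 5 genes, at 2.19% and 3.16%. Of these, miR-20b-5p (1229 and 1869) is made there alone. The others, miR-19b-3p, miR-92a-3p and miR-17-5p, which RefSeq also places at Mir106a, are made on chromosome 15 too, and both arms of miR-363 were undetected. In sequence miR-20b-5p differs from miR-20a-5p and from miR-17-5p at 2 of 23 bases, so part of its signal could come from them.

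Other clusters were present at lower levels. The X-chromosome cluster of miR-322, miR-503, miR-351, miR-542 and miR-450a, known from muscle and growth arrest, had all 5 genes and 8 of 10 names detected, at 0.574% ± 0.0333, led by miR-322-5p (691 and 994). miR-199a-3p, typical of mesenchymal cells, was at 1513 and 1666, while its neighbour miR-214-3p was at 18.3 and 25.6. miR-212-3p, a target of the transcription factor CREB, was at 543 and 727, while miR-132-3p of the same cluster was at 7.76 and 7.31. The genes of miR-212 and miR-132 were 70.0-fold apart on replicate 1 and 99.4-fold on replicate 2. A shared transcript therefore did not come with equal array signals, and how much of this lies in the probes was not tested. Of the Hox-cluster miRNAs, 5 of 10 were detected, all of them 5p arms, from miR-10a-5p (268 and 376) down to miR-10b-5p (13.0 and 17.5). miR-10b, known as raised in human gliomas, was the dimmest of the 5 by mean log2 signal. On replicate 2, however, miR-196a-5p (20.9 and 14.4) was dimmer.

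Of 262 hairpins with both arms on the array, 50 had both arms detected on both arrays, 43 had only the 5p arm detected on both and the 3p arm on neither, and 38 the reverse. For 119 neither arm was detected on either array. Where the detected arm is itself dim, an undetected partner does not show one-sided use. Arms were paired by name, so a hairpin was left out where only 1 of its arm names carries a locus number. One such is miR-125b, with its 5p arm at 34783 and 25094 and miR-125b-2-3p at 3.09 and 8.33. Among the 50, the 5p arm was brighter on both arrays in 29 hairpins, the 3p arm in 18, and the brighter arm differed between the arrays in 3 (miR-33, miR-362 and miR-455). Both arms of miR-33 were dim, at 3.38 and 12.1 for the 5p arm and 4.55 and 6.92 for the 3p arm. The arms of a hairpin differed by a median of 10.4-fold, with 25 hairpins over 10-fold, 8 over 100-fold and 8 within 2-fold. The median SD of that difference between the arrays was 0.43 on the log2 scale. Arms are read by different probes, so these are differences of signal. By name, 109 of 292 5p arms were detected and held 68.1% and 67.0% of the signal, and 110 of 297 3p arms held 30.0% and 31.4%.

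The most 5p-sided and the most 3p-sided of these 50 hairpins and a nearly balanced one are shown here 5′ to 3′ with both mature arms in capitals. Mir21 lies at chr10:71902600-71902691 (minus strand), Mir29a at chr4:60617955-60618042 (minus strand) and Mir140 at chr19:52375293-52375391 (plus strand), within the span of the ubiquitin ligase gene Wwp2 in RefSeq on GRCr8.
Mir21: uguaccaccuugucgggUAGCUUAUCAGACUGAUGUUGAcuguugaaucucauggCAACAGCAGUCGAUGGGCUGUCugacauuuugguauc
Mir29a: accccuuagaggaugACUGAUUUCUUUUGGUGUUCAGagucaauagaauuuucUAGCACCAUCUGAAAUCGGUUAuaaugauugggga
Mir140: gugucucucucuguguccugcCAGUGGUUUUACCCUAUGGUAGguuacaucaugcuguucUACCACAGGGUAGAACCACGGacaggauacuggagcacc
The 5p arm of miR-21 exceeded its 3p arm (49.8 and 147) by 1042-fold, a log2 difference of 10.03 ± 0.77 (SD, n = 2). For miR-29a the 3p arm exceeded the 5p arm (10.1 and 18.5) by 827-fold, at -9.69 ± 0.40. For miR-140, known from cartilage, the 5p arm gave 639 and 489 and the 3p arm 1205 and 654, a log2 difference of -0.67 ± 0.35.

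Other strongly 3p-sided hairpins were miR-221 (log2 5p minus 3p of -9.17 ± 0.08), miR-23a (-8.65 ± 0.07), miR-29c (-7.19 ± 0.53) and miR-199a (-6.44 ± 0.92). They were followed by miR-324 (-5.11 ± 1.32), miR-148b (-5.05 ± 0.93), miR-325 (-4.66 ± 0.34), miR-22 (-4.65 ± 0.20) and miR-338 (-4.40 ± 0.92). On the 5p side miR-26b (7.74 ± 0.43), miR-15b (6.93 ± 0.26), miR-99a (6.76 ± 0.35), miR-135b (6.17 ± 0.53) and miR-20a (6.04 ± 0.30) came after miR-21. miR-384 (5.86 ± 0.33), miR-30b (5.72 ± 0.61), miR-106b (5.62 ± 0.52) and miR-34c (5.38 ± 0.72) completed the 10 most 5p-sided of these 50. Thus miR-15b, of which the 3p arm gave 52.5 and 33.0, and miR-23a, of which the 5p arm gave 38.7 and 27.9, each put nearly all signal in 1 arm, on opposite sides.

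A few hairpins had 2 well-measured arms. miR-31a was the brightest of these, with a 3p arm at 1201 and 1577, so the 5p arm held 79.4% of the hairpin's signal on replicate 1 and 75.5% on replicate 2. miR-9a, made from 3 genes in the rat, had its 5p arm at 577 and 399 and its 3p arm at 249 and 158, with the 5p arm at 69.9% and 71.6%. miR-340 (5p arm 151 and 163, 3p arm 140 and 102) was within 2-fold on both arrays. miR-652, in which the 3p arm is the usual guide in mammals, showed the 5p arm brighter at 1408 and 1673 against 246 and 239; whether the probes set this was not tested.

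**Figure D4:**
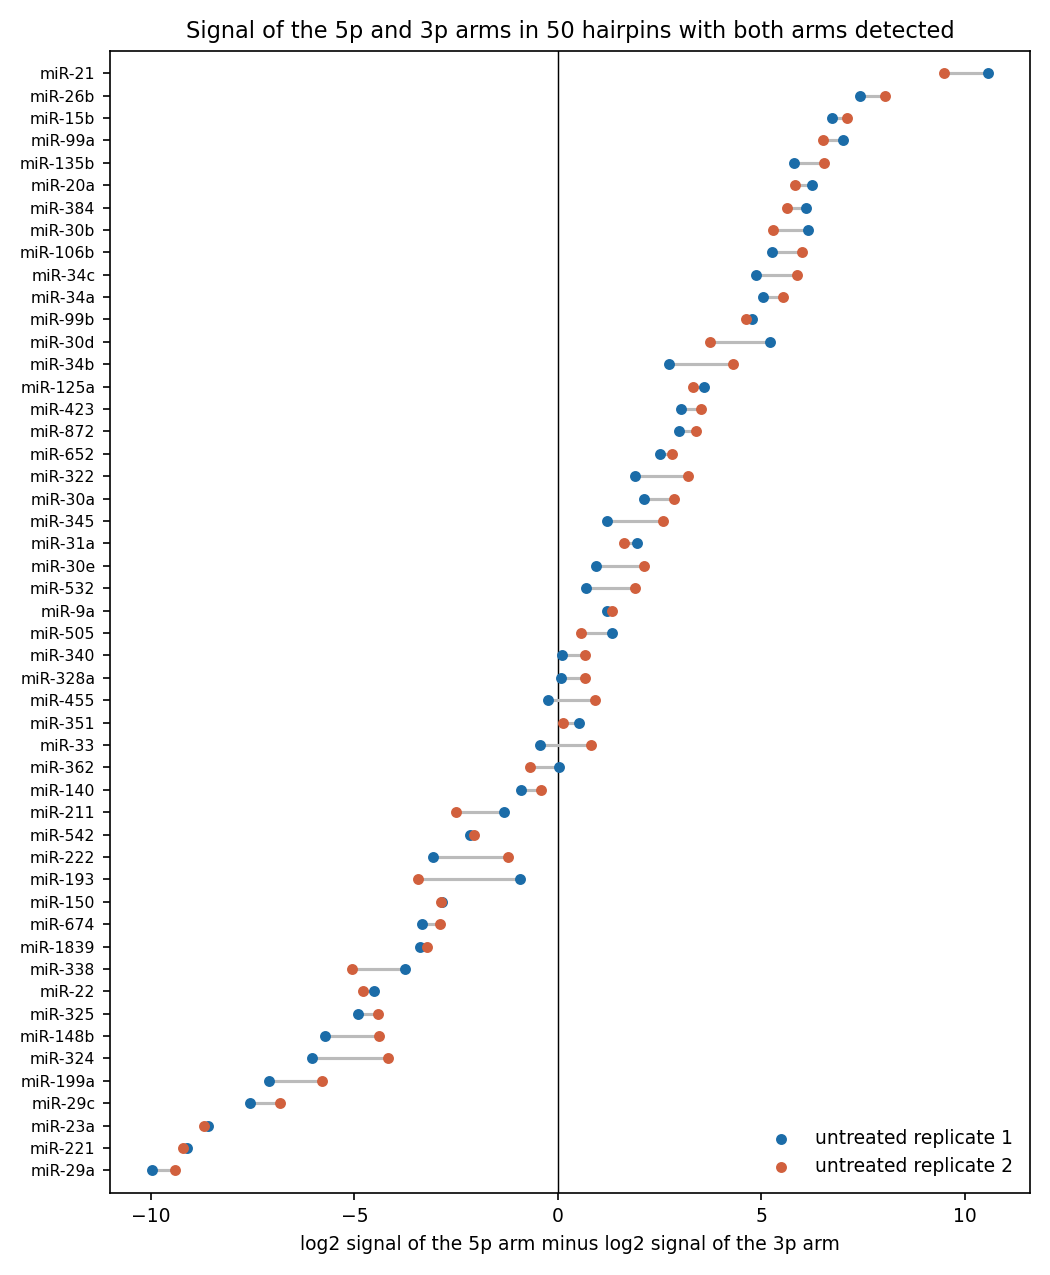
Log2 signal of the 5p arm minus that of the 3p arm for the 50 hairpins with both arms detected, with blue points for untreated replicate 1, orange points for untreated replicate 2, grey lines joining them and a vertical line at 0 where the arms are equal. The hairpins run from miR-21 at the top (mean 10.03) to miR-29a at the bottom (mean -9.69), with 29 on the 5p side on both arrays and 18 on the 3p side.

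Lists of miRNAs typical of certain cell types were detected to unequal degrees. Against 33.1% detected over the whole array, 6 of 12 neural-tissue miRNAs and 4 of 13 neuronal ones were detected on both arrays. The neuronal miR-124, the most abundant miRNA of neurons, and miR-137 were undetected in both arms. The 4 detected neuronal names were those of miR-129, with miR-129-1-3p at 1061 and 1403 and miR-129-5p at 268 and 391, and miR-218a-5p at 170 and 185. miR-129-1-3p is identical to miR-129-2-3p (2227 and 3055) over its 19 bases, so those names may read the same RNA. Among neural-tissue miRNAs, miR-7a-5p, which targets the EGF receptor, stood at 873 and 629 and miR-128-3p, which targets Bmi1, at 406 and 284. All 3 arms of miR-138 on the array were undetected. The oligodendrocyte miRNAs were detected in 3 of 5 names: miR-338-3p, from an intron of the kinase gene Aatk in mammals, at 291 and 454, miR-338-5p at 21.6 and 13.7, and miR-219-5p at 22.6 and 52.0.

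Among lists of other cell types, some were undetected as a whole, where 33.1% of names were detected over the whole array. The epithelial list of miR-200, miR-141, miR-429, miR-203 and miR-205 had 0 of 14 names detected, and the erythroid miR-144 and miR-451 0 of 4. The hepatocyte miR-122, the endocrine miR-375 and the hypoxia-induced miR-210 were undetected in both arms. Of leukocyte and microglial miRNAs 3 of 6 were detected, with miR-150-3p at 115 and 73.4 (member medians 85.9 and 99.02), miR-150-5p at 16.0 and 10.0 and the myeloid miR-223-3p at 14.2 and 11.02; miR-155 was not on the array. The endothelial miR-126a-3p was at 77.9 and 50.5. Of 14 striated-muscle names 3 were detected, miR-206-3p (54.4 and 21.8), its cluster neighbour miR-133b-3p (48.0 and 29.6) and miR-208a-5p (14.6 and 15.6). The 3p arm of miR-208a and both arms of miR-1 and miR-133a were undetected. The mesenchymal miR-199a-3p, given above with its cluster, was far brighter than the detected muscle, endothelial and leukocyte names. The other names of its cluster were not: miR-199a-5p was at 11.1 and 30.1, miR-214-3p at 18.3 and 25.6, and miR-214-5p undetected. Of the smooth-muscle pair of miR-143 and miR-145, miR-143-3p was at 19.7 and 18.7 and both arms of miR-145 were undetected. Undetected means below the detection call of the scanner software: each undetected miRNA of these lists had at most 1 of its 20 spots well above background.

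Large clusters of restricted expression were for the most part undetected, where 33.1% of names were detected over the whole array. The imprinted Dlk1-Dio3 cluster, active in brain and placenta, had 4 of 82 names detected on both arrays, 1 on 1 array and 77 on neither, and held 0.327% ± 0.0037. Nearly all of that was miR-494-3p at 1044 and 997. The other 3 were miR-770-3p (34.4 and 32.6), miR-370-3p (22.5 and 22.6) and miR-487b-3p (6.21 and 32.8). miR-494-3p was 168-fold above miR-487b-3p on replicate 1 and 30.4-fold on replicate 2, although RefSeq places both in one run of 34 genes at chr6:134543460-134579828 (plus strand), of which these 2 had a detected product. The embryonic stem cell cluster of miR-290 to miR-295 had miR-290 alone detected, at 49.99 and 90.1, of 11 names. The X-linked testis cluster had miR-743a-3p (62.3 and 40.8) and miR-878 (64.2 and 40.8) detected of 23, and the sensory cluster of miR-183, miR-96 and miR-182 had 0 of 5. The small repeat-derived miR-297 and miR-466 family was an exception with 3 of 7 detected (42.9%), led by miR-466b-2-3p (139 and 156).

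**Figure D5:**
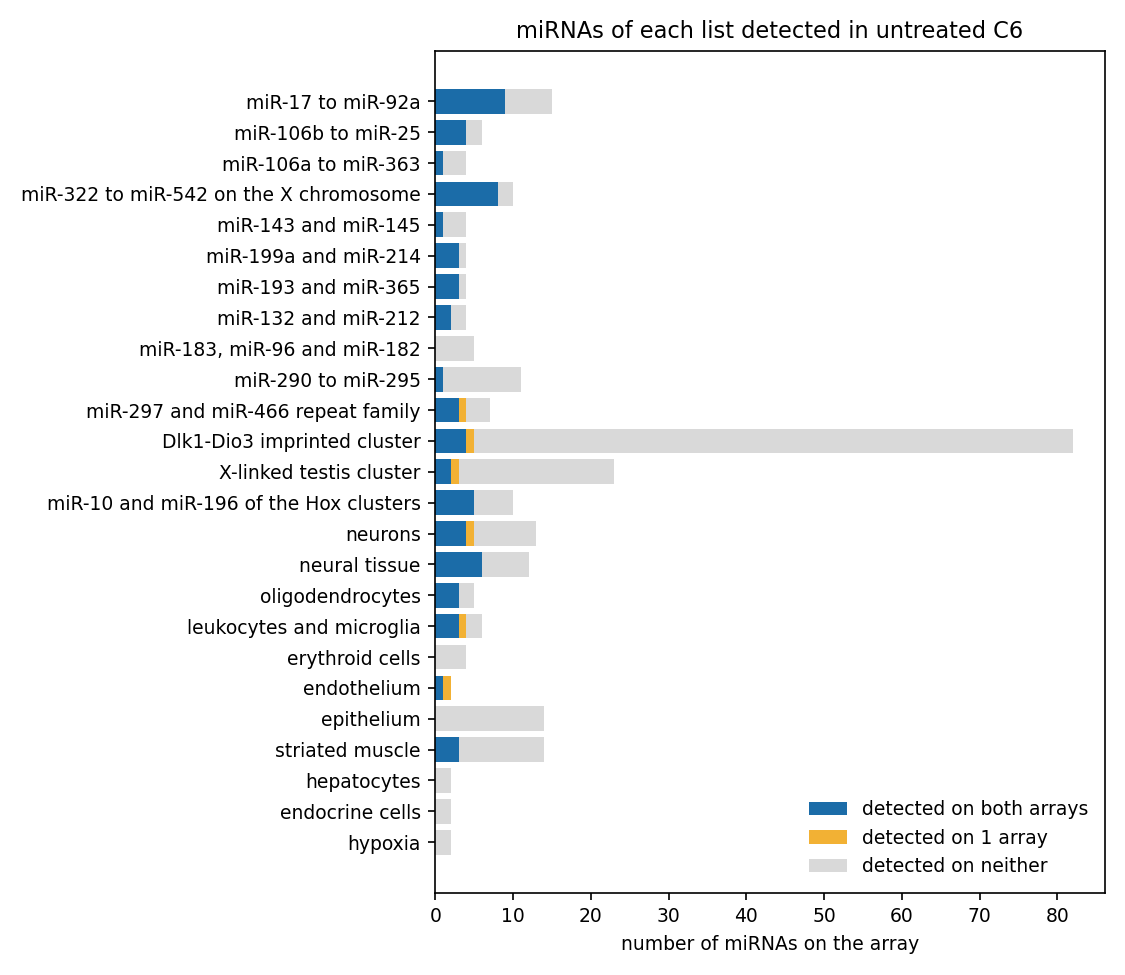
Number of miRNAs on the array in each cluster or cell-type list, split into those detected on both untreated arrays (blue), on 1 array (yellow) and on neither (grey). The Dlk1-Dio3 bar is mostly grey with 4 of 82 detected on both arrays, and the epithelium bar is wholly grey.

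The 2 control arrays were alike over the whole repertoire but differed for single members. Across the 238 members the log2 signals correlated at 0.97 (Pearson, a description across miRNAs), and 143 had shares within 1.5-fold on the arrays. Yet 37 were over 2-fold apart, 28 of them higher on replicate 2 and 9 on replicate 1. The 10 with the largest difference in log2 share, replicate 2 minus replicate 1, were headed by miR-487b-3p (2.40), miR-204-5p (-2.16, at 1043 and 233) and miR-193-3p (1.99, at 61.3 and 243). miR-204-5p, known from retinal pigment epithelium and differentiated cells, was the 1 of these 10 that was lower on replicate 2. The rest were miR-33-5p (1.84, at 3.38 and 12.1), from an intron of the sterol regulator gene Srebf2, miR-301a-3p (1.83), miR-551b-5p (1.68), miR-148b-5p (1.66, at 2.93 and 9.19), miR-29b-3p (1.61), miR-101a-3p (1.59) and miR-19a-3p (1.57). The signals of miR-33-5p and miR-148b-5p, and of miR-487b-3p on replicate 1 (6.21), lie in the range of miRNAs detected on 1 array only (2.88 to 16.3). Their differences are therefore poorly measured.

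In some families the members differed in the same direction and in others they did not. Over the whole repertoire, 137 of 238 members had a lower share on replicate 2. All 8 members with the let-7 seed had a lower share on replicate 2, with a median log2 difference of -0.56 and a range of 1.27-fold to 1.63-fold, against a median of -0.10 over all 238 members. All 5 detected miR-29 names were higher on replicate 2 (median 0.88), among them miR-29b-3p at 1819 and 5538. So were 8 of 9 names of the miR-17 to miR-92a cluster (median 1.02), with miR-19a-3p at 456 and 1350 and miR-92a-3p as the exception. Signs were mixed in the miR-30 list (6 higher and 5 lower on replicate 2) and in miR-23, miR-27 and miR-24 (2 and 5). They were also mixed in miR-125 (2 and 4), miR-34 and miR-449 (5 and 2) and miR-181 (2 and 3). Other lists were one-sided, among them miR-99 and miR-100 (0 and 5), miR-26 (0 and 3), neural tissue (0 and 6) and neurons (4 and 0). The correlation of GC content with the difference between arrays was -0.01 (Pearson, over the 209 members with a sequence). The summed signals of the arrays were nearly equal, so shares and signals give the same differences. Members of a family can cross-hybridise, so they are not independent readings.

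Of the 238 members, 100 stood in none of the lists. The brightest of these after miR-21-5p, miR-31a-5p, miR-22-3p and miR-1949 were miR-324-3p (2222 and 1502), miR-652-5p, miR-31a-3p and miR-1224 (1215 and 1347). At the other end the 5 dimmest members were all arms with a brighter partner: miR-148b-5p (2.93 and 9.19), miR-125b-2-3p (3.09 and 8.33), miR-423-3p (7.24 and 2.996), miR-30c-1-3p (4.02 and 3.63) and miR-384-3p (3.77 and 3.68). Signals this low lie in the same range as those of miRNAs detected on 1 array only, so membership at the bottom of the order rests on the detection call.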

How the data were processed

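miRNA levels of 2 untreated C6 cultures were measured on 1-colour arrays. Per the file headers, the authors' deposited array intensities are linear and came from Agilent Feature Extraction 10.7.3.1; undetected entries hold 0.1, which was checked. The deposited detection, outlier and background flags are of unit other (0 or 1). Here the gene-level intensity was summed over miRNAs detected on both arrays and given as shares; ranks used the mean log2 signal. Each array gave 14380 spots, and the median deposited error was 8.30% and 8.18% of the signal. Nothing was tested between groups. The named miRNAs are the 25 brightest, the 10 most unequal hairpins per direction, the 10 with the largest difference between arrays, the 5 dimmest, and members of the lists; others named were chosen after their values were seen. Members and lists were chosen with earlier results of these data known. miR-653, undetected in both arms, was taken out of the Dlk1-Dio3 list after its values were seen, because RefSeq places it on another chromosome. Clusters used the span of mature sequences. Alternatives changed the probe summary, background (normexp on spot medians, limma 3.58.1 in R 4.3.3), scaling, ranking and detection rule, and left out each array. Scripts (Python 3.11.15, pandas 2.3.3) were tested on simulated data.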

Additional observations from a re-analysis of the deposited data

How the results depend on the processing

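Of 60 values over 10 settings, 55 kept within the spread between arrays (or 1.5 times for a count). This count is no measure of robustness. For shares with 1 array left out it was nearly fixed, since each of 2 arrays lies within 1 SD of their mean. Ranking by mean linear share, and detection as a signal over 3 times its error, returned every value unchanged. The share of the 10 brightest miRNAs, 61.8%, became 58.4% with normexp at an offset of 50, which raises dim miRNAs by construction, and 62.0% to 62.1% with 1 array left out. Without miR-21-5p, a setting chosen after seeing the data, the share of the 10 brightest was 50.2%, that of the brightest (then miR-125b-5p) 12.2%, and that of let-7 and miR-98 23.2% instead of 17.1%. miR-21-5p was the brightest in all 9 other settings. With 1 array left out its share was 22.5% to 31.5%, that of let-7 and miR-98 13.6% to 20.6%, the detected miRNAs 242 to 249, hairpins with both arms detected 50 to 54, those with a brighter 5p arm 31, miRNAs that hold 90% of the signal 42 and detected Dlk1-Dio3 miRNAs 4 to 5. No paired analysis was possible because only 1 group was described. Spots at or below 0 after background subtraction made up 52.8% and 58.2%, which limits statements on undetected miRNAs.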
